A study of Mus musculus with 6 samples.

Results

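The 10 genes described here encode the Fos proteins (Fos, Fosb, Fosl1, Fosl2), the Jun proteins (Jun, Junb, Jund) and the zinc finger factors Egr1, Egr2 and Egr3. They were chosen by symbol, and all 10 were found among the 20325 genes of the table. RNA was sequenced from C3H10T1/2 cells, a mouse mesenchymal progenitor line derived from C3H embryos, at passage 10 to 15 and grown in medium with fetal bovine serum. The knockdown group (3 samples) was parental cells given small interfering RNAs against Ring1a and Ring1b, and the control group (3 samples) was parental cells given a scrambled small interfering RNA. Ring1 encodes Ring1a and Rnf2 encodes Ring1b, the RING-finger enzymes of Polycomb complex PRC1 that add ubiquitin to histone H2A. The comparison asked how the transcriptome changes when both are depleted. The sources used here do not say how long after transfection the cells were harvested.

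Fos and Jun proteins are basic leucine zipper factors. A Fos protein must pair with a Jun protein to bind DNA, while Jun proteins can also pair with each other, and the resulting dimers are called AP-1. Serum, growth factors and stress act through MAP kinases, the serum response factor SRF and its ternary complex partners to switch on Fos, Fosb, Jun, Junb and the Egr genes within minutes and for a short time, which is why they are called immediate early genes. Fosl1 and Fosl2 follow later, and Jund is made more steadily. Many of these transcripts carry AU-rich elements and are short-lived, so their level follows recent signalling closely.

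Values below are estimated read counts after the authors' median normalization. Both targeted genes were lower in every knockdown than in every control. Rnf2 had 129, 76.5 and 152 in knockdown replicates 1, 2 and 3, against 815, 829 and 799 in control replicates 1, 2 and 3, and Ring1 had 162, 268 and 186 in the knockdowns, against 336, 386 and 374 in the controls. Rnf2 passed the test described below (limma adjusted p = 0.00946) and Ring1 did not (limma adjusted p = 0.104). When knockdown replicate 2 was left out both fell, Ring1 with a limma adjusted p of 3.864e-06. Estimated depths were 23200000, 4600000 and 18500000 reads in the knockdowns and 51800000, 5400000 and 15100000 in the controls. Knockdown replicate 2 stood apart: across genes its log2 values correlated with the other libraries at 0.821 to 0.867, against 0.944 to 0.993 for the other pairs, and 20.6% of its summed values came from ribosomal protein genes, against 5.07 to 5.81% in the other libraries. In it 3 reads correspond to a value of 12.8, a floor that covers counting error only. Tests of the 10 genes are therefore given with and without it, as are the counts of the gene lists. Mesenchymal markers summed to 283967 to 396760 in the knockdowns and 337323 to 365929 in the controls, and of 11 tested 1 rose and 0 fell, where 4.98% of all genes tested were called. That was the TGF-beta co-receptor gene Eng, and Nt5e was too low to test. Without knockdown replicate 2, 8 of the 11 markers rose and 3 fell, where 49.9% of all genes tested were called. Leukocyte markers summed to 91.7 to 213 in the knockdowns and 100.2 to 123 in the controls (Cd3e at 0 in all 6 libraries), epithelial markers to 17.1 to 38.3 in the knockdowns and 15.0 to 31.6 in the controls, and endothelial markers to 106 to 157 in the knockdowns and 87.7 to 108 in the controls. Of the 5 tested among these 3 lists 0 were called in limma with all libraries. An unadjusted p under 0.05 was reached by 1, against 2473 of all 12085 genes tested. The endothelial gene Tek rose without knockdown replicate 2 (limma adjusted p = 0.00474), where 49.9% of all genes tested were called.

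In 8 of the 10 genes, all but Jun and Jund, the log2 fold change between groups was smaller than the SD within groups when all 6 libraries were used. Without knockdown replicate 2 it was larger than that SD in Fosl1 (1.30 against 0.25) and Junb (0.70 against 0.37) as well. All 10 passed the filter on low values, a mean of at least 10. With all 6 libraries 0 of 10 rose and 0 fell (limma on log2(value + 1), Benjamini-Hochberg adjusted p under 0.05 over 12085 genes), where 4.98% of all genes tested were called, 3.2% higher and 1.78% lower. The median log2 fold change of the 10 was −0.14, against 0.01 over all genes tested. At an unadjusted p under 0.05 there was 1, Jun, against 2473 of all 12085 genes tested. Without knockdown replicate 2, Fosl1 rose and Jun fell, 2 of 10, where 49.9% of all genes tested were called, 23.8% higher and 26.1% lower. The groups did not overlap in Jund, higher in all 3 knockdowns (20.5% of all genes tested), and in Jun, lower in all 3 (23.7%). In limma 0 genes of the whole table, those named below included, were called when control replicate 1, 2 or 3 was left out (1495, 1529 and 1475 at an unadjusted p under 0.05). In these bulk samples fewer cells making a transcript and less of it per cell cannot be told apart. None of the 10 is in the authors' deposited list of 323 differential genes.

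**Figure D1:**
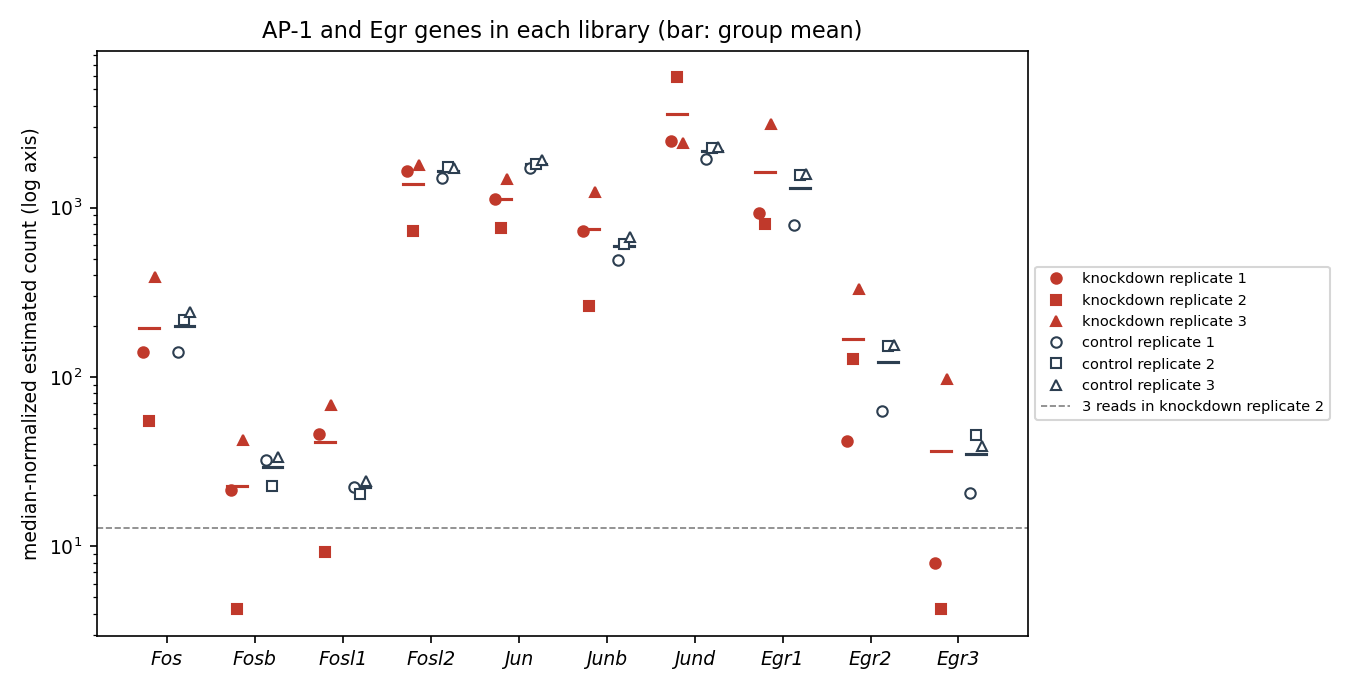
Median-normalized estimated counts (log axis) of the 10 genes in each library. Filled red symbols are knockdown replicates 1 to 3, open dark symbols control replicates 1 to 3, short bars the group means, and the dashed line the value of 3 reads in knockdown replicate 2. Knockdown replicate 3 is the highest library for 8 of the 10 genes, and the knockdown symbols lie below all controls for Jun alone.

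Jun (chr4:95049036-95052222 in GRCm38) encodes c-Jun, the founding member of AP-1 and an activator of its own promoter. Its level was 1130, 761 and 1468 in knockdown replicates 1, 2 and 3, against 1723, 1812 and 1922 in the controls, so every knockdown library was below every control. The mean was 1120 ± 354 in knockdown cells and 1819 ± 99.9 in control cells (SD, n = 3 each). Its log2 fold change of −0.75 (SE 0.26) did not pass (limma adjusted p = 0.188). Jun fell by 0.50 on the log2 scale when knockdown replicate 2 was left out (SE 0.10, limma adjusted p = 0.00381). This was a 1.41-fold decrease on average, with 2 of 2 libraries below every control. An exact permutation test of 3 against 3 cannot give a two-sided p below 0.1.

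Part of the Jun promoter is shown because it holds the variant AP-1 site through which c-Jun is known to act on its own gene. Promoter windows from 250 bases before to 50 after the start were taken from RefSeq on GRCm38.p6, a newer build than the authors' mm9, and 7 of the 10 genes had one (not Fosl1, Egr1 and Egr3). Both strands were searched for the AP-1 site TGANTCA, the variant TGACATCA, the cyclic AMP response element TGACGTCA, its core TGACGT (contained in the full element), the Egr site GCGTGGGCG and the CArG box, which SRF binds. The stretch below lies at chr4:95052225-95052302 on the minus strand, with the variant AP-1 site in capitals, 45 to 38 bases before the start.
Jun promoter: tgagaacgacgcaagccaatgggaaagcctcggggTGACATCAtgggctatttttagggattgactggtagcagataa
TGACATCA occurred in 3.62% of all 32817 windows, and Jun was the only one of the 7 genes with it. TGANTCA, which is in 7.81% of windows, TGACGTCA (1.79%) and the Egr site (0.61%) had no match in the windows of these 7 genes.

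Jund (chr8:70697739-70700616) encodes JunD, which is often made in resting cells. Its level was 2469, 5887 and 2425 in the knockdowns, against 1935, 2260.1 and 2288 in the controls. All knockdowns were above all controls, but the excess was largest in knockdown replicate 2. The log2 fold change of 0.61 (SE 0.38, limma adjusted p = 0.4003) was 0.18 (SE 0.07, limma adjusted p = 0.05001) without that library, and passed in neither fit. Jund is short, with 1668 nt of transcript. When genes were split into 4 equal bins by transcript length, the bin of shortest transcripts, with a median of 1279.5 nt, had in knockdown replicate 2 a median log2 difference of 1.09 from the mean of the other 2 knockdowns, and Jund had 1.27. With the length trend of each library removed, the Jund log2 fold change was 0.37 (limma adjusted p = 0.300).

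Junb (chr8:84976909-84978748) encodes JunB, which can oppose c-Jun at some AP-1 sites. It had 728, 264 and 1241 in the knockdowns, against 488, 611 and 671 in the controls. The knockdowns lay on both sides of the controls, with replicate 2 below and replicates 1 and 3 above all of them. Its log2 fold change was 0.08 (SE 0.57, limma adjusted p = 0.930) and 0.70 (SE 0.30, limma adjusted p = 0.144) without knockdown replicate 2.

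Levels of different genes can be set side by side only per kb of transcript. Per kb, Jun was 15.8, 6.10 and 17.7% of the Jun family total in knockdown replicates 1, 2 and 3, against 27.4, 25.1 and 25.7% in the controls. The 3 controls were close to each other, and every knockdown was below them. Jund made up 66.2, 90.2 and 55.9% in the knockdowns, against 58.9, 59.9 and 58.5% in the controls, and its groups overlapped. The ratios that follow are of values not divided by transcript length, so they compare libraries and not the levels of genes. Jun to Jund within a library was 0.458, 0.129 and 0.605 in the knockdowns and 0.890, 0.802 and 0.840 in the controls. No scaling of whole libraries can change such a ratio. Other ratios overlapped between the groups: Jun to Junb was 1.55, 2.89 and 1.18 in the knockdowns and 3.53, 2.96 and 2.86 in the controls, and Jun to Fosl2 was 0.683, 1.04 and 0.827 in the knockdowns and 1.15, 1.04 and 1.12 in the controls. In both, knockdown replicate 2 alone reached the controls. Jun has 3189 nt of transcript and Jund 1668 nt, and the length trend of each library was not removed from the shares and ratios. In knockdown replicate 2 the length bin of Jun had a median log2 difference of −0.36 from the mean of knockdown replicates 1 and 3. That of Jund had 1.09. These shares and ratios were looked at after the values were seen and are given without a test.

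**Figure D2:**
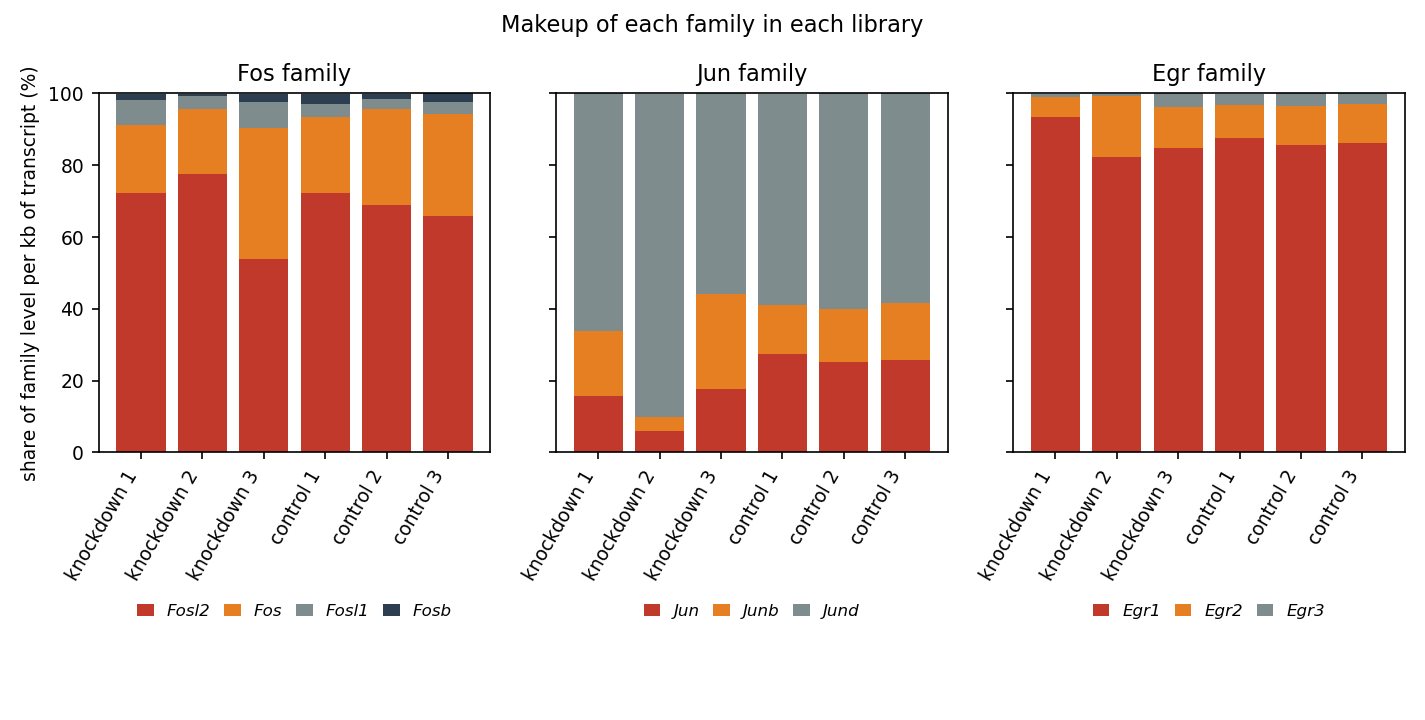
Share of each member in the summed level per kb of transcript of its family (%), in knockdown replicates 1 to 3 and control replicates 1 to 3. The 3 control bars are nearly alike in the Jun family, with Jun at 25.1 to 27.4%, while Jun takes 6.10 to 17.7% in the knockdowns. In the Egr family Egr1 takes 82.3 to 93.4% in every library.

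Fos (chr12:85473890-85477274) encodes c-Fos, the classical serum-induced partner of c-Jun. Its level was 140, 55.3 and 388 in the knockdowns, against 141, 218.0 and 240 in the controls. The highest and the lowest of the 6 libraries were both knockdowns, so the groups overlapped fully. The means, 194 ± 173 in knockdown cells and 199.8 ± 51.9 in control cells (SD, n = 3 each), differed by less than the spread within either group. For Fos the log2 fold change was −0.43 (SE 0.71, limma adjusted p = 0.709), and 0.26 (SE 0.59, limma adjusted p = 0.760) without knockdown replicate 2. Its proximal promoter is shown because the cyclic AMP response element core there is a known entry point for signals to this gene, at chr12:85473789-85473864 on the plus strand, with the core in capitals, 66 to 61 bases before the start.
Fos promoter: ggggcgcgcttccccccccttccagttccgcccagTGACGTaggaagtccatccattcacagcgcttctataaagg
TGACGT was in 7.51% of all windows. The SRF site of Fos is known to lie further upstream, beyond the window.

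Fosb (chr7:19302696-19310118) encodes FosB. It was low, with 21.5, 4.25 and 42.6 in the knockdowns, against 32.1, 22.6 and 33.4 in the controls. The value in knockdown replicate 2 corresponds to 1 read. Its log2 fold change was −0.79 (SE 0.79, limma adjusted p = 0.546), and 0.07 (SE 0.31, limma adjusted p = 0.879) without that library.

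Fosl1 (chr19:5447698-5455938) encodes Fra-1, a Fos protein without the long activation region of c-Fos and associated with growth and invasion of mesenchymal cells. It had 46.2, 9.23 and 68.4 in the knockdowns, against 22.4, 20.2 and 24.4 in the controls. The controls were tightly grouped, but they rest on about 86.6, 8.08 and 27.05 estimated reads. At so few reads in control replicate 2 their closeness is uncertain. Knockdown replicates 1 and 3 were above all controls. Knockdown replicate 2 was below all of them on about 2.17 estimated reads, under the floor of 3. With all libraries the log2 fold change of 0.47 (SE 0.73) did not pass (limma adjusted p = 0.691). Fosl1 rose when knockdown replicate 2 was left out, with a log2 fold change of 1.30 (SE 0.24, limma adjusted p = 0.000884), a 2.46-fold increase and higher in 2 of 2 libraries. With knockdown replicate 3 left out in its place the log2 fold change was −0.09 (limma adjusted p = 0.934).

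Fosl2 (chr5:32136472-32157840) encodes Fra-2, the most abundant Fos family transcript here. Its level was 1653, 729 and 1776 in the knockdowns, against 1501, 1749 and 1715 in the controls. Knockdown replicates 1 and 3 were within or just above the control range, and knockdown replicate 2 was below it. Its log2 fold change was −0.36 (SE 0.37, limma adjusted p = 0.556), and 0.05 (SE 0.07, limma adjusted p = 0.559) without knockdown replicate 2. Fosl2 has a long transcript of 6537 nt, and the bin of longest transcripts had a median log2 difference of −0.94 in knockdown replicate 2 against the mean of the other 2, where Fosl2 had −1.23. With the length trend removed its log2 fold change was 0.02 (limma adjusted p = 0.913). Per kb, Fosl2 made up 72.2, 77.5 and 53.9% of the Fos family total in the knockdowns, against 72.3, 68.9 and 65.8% in the controls, and Fos made up 19.0, 18.2 and 36.5% in the knockdowns, against 21.1, 26.6 and 28.6% in the controls.

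Other Fos and Jun genes departed from their length bin in knockdown replicate 2. Fos (2108 nt), Junb (1809 nt) and Fosl1 (1864 nt) belong to the bin from 1777 to 2756 nt, whose median log2 difference was 0.13 in knockdown replicate 2 against the mean of the other 2. The 3 genes had −2.24, −1.90 and −2.51. Knockdown replicate 2 was the lowest of the 6 libraries for 7 of the 10 genes, against 43.4% of all genes tested.

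**Figure D3:**
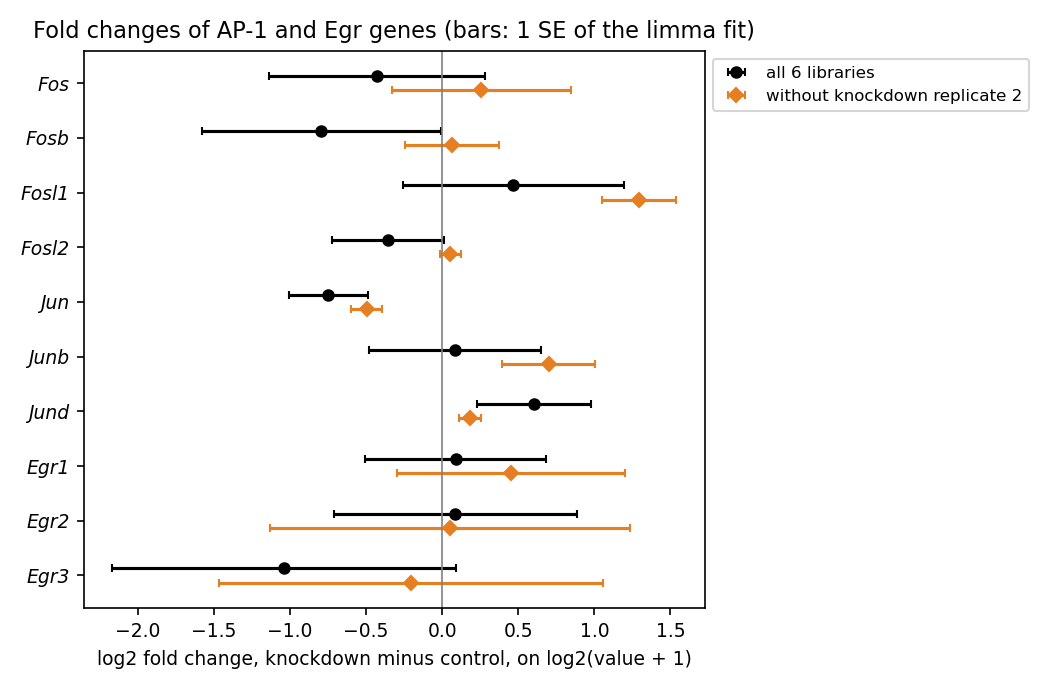
Log2 fold changes, knockdown minus control on log2(value + 1), of the 10 genes with 1 SE of the limma fit, for all 6 libraries (black circles) and without knockdown replicate 2 (orange diamonds). Jun lies below 0 in both fits, Fosl1 is at 0.47 and at 1.30, and the bars of Egr1, Egr2 and Egr3 cross 0 in both fits.

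Egr1 encodes a zinc finger factor induced by serum through several SRF sites, and was the most abundant of its family. Its level was 934, 804 and 3138 in the knockdowns, against 793, 1555 and 1589 in the controls. Knockdown replicate 3 stood far above every other library, and knockdown replicates 1 and 2 were close to control replicate 1. The mean was 1625 ± 1312 in knockdown cells and 1312 ± 450.0 in control cells (SD, n = 3 each). The Egr1 log2 fold change was 0.09 (SE 0.60, limma adjusted p = 0.929), and 0.45 (SE 0.75, limma adjusted p = 0.676) without knockdown replicate 2.

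Egr2 (chr10:67534469-67542188) encodes Krox20, known for its role in myelination and hindbrain patterning. It had 41.8, 128 and 330.0 in the knockdowns, against 62.9, 153 and 154 in the controls. The lowest and the highest library were again both knockdowns, 7.89-fold apart. The Egr2 log2 fold change was 0.09 (SE 0.80, limma adjusted p = 0.948), and 0.05 (SE 1.19, limma adjusted p = 0.977) without knockdown replicate 2. A short stretch is shown because Egr2 was the only one of the 7 genes with a CArG box in its windows, at chr10:67537793-67537822 on the plus strand. Capitals mark the CArG box, 72 to 63 bases before one of the annotated starts, and the core TGACGT read from the other strand.
Egr2 promoter: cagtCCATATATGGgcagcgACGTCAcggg
A CArG box was in 1.63% of all windows. Another CArG box lay in the window of a different annotated start of Egr2.

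Egr3 (chr14:70077317-70082613) encodes a factor induced by antigen receptors, growth factors and neuronal activity. It had 7.92, 4.25 and 97.4 in the knockdowns, against 20.7, 45.1 and 38.8 in the controls. These correspond to 14, 1 and 137 reads in the knockdowns and about 79.9, 18 and 43 in the controls, so the value of knockdown replicate 2 rests on 1 read. Knockdown replicate 3 was 12.3-fold above knockdown replicate 1. For Egr3 the log2 fold change was −1.04 (SE 1.13, limma adjusted p = 0.575), and −0.21 (SE 1.26, limma adjusted p = 0.911) without knockdown replicate 2.

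The levels of the 10 genes spanned a wide range, from Jund to Fosb in both groups. In the knockdowns Jund led at 2155 ± 1191 per kb of transcript, followed by Egr1 at 432 ± 349, Junb at 411 ± 270.4, Jun at 351 ± 111, Fosl2 at 212 ± 87.5, Fos at 92.2 ± 81.9, Egr2 at 58.1 ± 51.7, Fosl1 at 22.1 ± 16.03, Egr3 at 13.4 ± 19.4 and Fosb at 6.33 ± 5.34 (SD, n = 3). Of neighbours in this order, Jund and Egr1 did not overlap over the libraries and all others did. In the controls the levels per kb were 1296 ± 118 for Jund, 570.4 ± 31.3 for Jun, 349 ± 120 for Egr1, 326 ± 51.6 for Junb, 253 ± 20.6 for Fosl2, 94.8 ± 24.6 for Fos, 43.0 ± 18.2 for Egr2, 12.8 ± 4.65 for Egr3, 12.002 ± 1.12 for Fosl1 and 8.16 ± 1.65 for Fosb (SD, n = 3). Among control neighbours Egr1 overlapped Junb and Egr3 overlapped Fosl1, and the others did not overlap. Within libraries Jun was above Egr1 in knockdown replicates 1 and 2 and below it in replicate 3.

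With knockdown replicate 2 set aside, the Egr genes and Fos differed most of the 10 genes between libraries of the same group. Knockdown replicate 3 exceeded knockdown replicate 1 by 12.3-fold for Egr3, 7.89-fold for Egr2, 3.36-fold for Egr1 and 2.76-fold for Fos. Only 34 of 12085 genes, 0.281%, were more than 2-fold higher in replicate 3 than in replicate 1 after adding 1 to each value, and these 4 were among them. Fosb was 1.98-fold, Junb 1.71-fold, Fosl1 1.48-fold and Jun 1.30-fold higher, while Fosl2 (1.07) and Jund (0.982) hardly differed.

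In the controls the same 4 genes differed most. Control replicate 3 exceeded control replicate 1 by 2.44-fold for Egr2, 2.00-fold for Egr1, 1.88-fold for Egr3 and 1.70-fold for Fos, and control replicate 2 exceeded it by 2.43, 1.96, 2.18 and 1.54-fold. In 86 genes, 0.712% of those tested, both control replicates 2 and 3 were more than 1.5-fold above control replicate 1. Junb was 1.38-fold higher in control replicate 3, and Fosl2, Jun, Jund, Fosl1 and Fosb were 1.04 to 1.18-fold higher. The Egr1 values rest on about 1652, 189 and 4416 reads in the knockdowns and 3063, 621 and 1759 in the controls.

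Both conditions were met by 13 genes, 0.108% of those tested. They include Fos, Egr1, Egr2 and Egr3, and 4 of the 30 other immediate early genes tested, namely Nr4a1, Ier2, Arc and Cyr61. The other 5 were Dusp5, Gm4535, Cox6a2, Car6 and Cngb1. These genes and folds were chosen after the values were seen, and with 1 library on each side they are a description with no test.

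**Figure D4:**
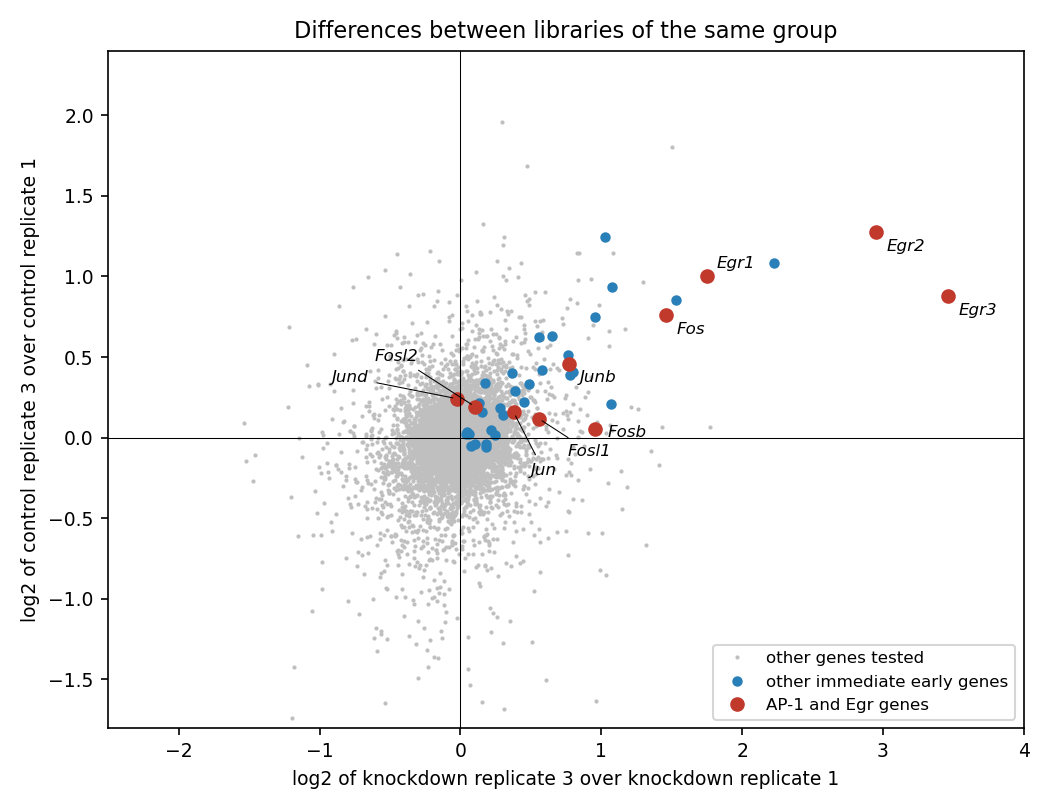
Log2 ratio of knockdown replicate 3 over replicate 1 (horizontal) and of control replicate 3 over replicate 1 (vertical), each with 1 added to the values, for 12085 genes; 18 genes lie outside the plotted range. Red points are the 10 genes, blue points other immediate early genes, and grey points the rest. Egr1, Egr2, Egr3 and Fos lie far to the upper right, and Jund and Fosl2 lie within the cloud.

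The same 4 genes had the widest spread within groups among the 10 when knockdown replicate 2 was left out. Their within-group SD of log2 values was then 1.49 for Egr3, 1.35 for Egr2, 0.85 for Egr1 and 0.68 for Fos, against a median of 0.09 over all genes tested. Egr3, Egr2, Egr1 and Fos stood at percentiles 99.8, 99.8, 99.4 and 98.8 of all genes, and Fosb, Junb and Fosl1 at 96.8, 94.6 and 89.1. Jun, Jund and Fosl2 stood at percentiles 79.1, 62.2 and 60.2. With all libraries the median SD over all genes was 0.38 and the order differed: Egr3 stood at percentile 99.5, Egr2 at 97.8, Fosb at 97.4, Fosl1 at 96.1, Fos at 95.9, Egr1 at 91.8 and Junb at 90.1, with Jund at 68.7, Fosl2 at 67.0 and Jun at 45.2. In both fits the log2 fold changes of the Egr genes and Fos were smaller than these spreads and too small to detect here. A change larger than the spread could also go uncalled: Jun, at −0.75 with a spread of 0.34, was not called with all libraries.

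Other immediate early genes, a list of 32 rapid serum-response genes, were also often highest in knockdown replicate 3. Of 30 tested, 1 rose and 0 fell, where 4.98% of all genes tested were called. An unadjusted p under 0.05 was reached by 10, against 2473 of all 12085 genes tested. The median log2 fold change of the 30 was 0.10, against 0.01 over all genes tested. Ier5, a heat shock factor regulator, had 1035, 1114 and 1133 in the knockdowns, against 482, 509 and 559 in the controls, and rose (log2 fold change 1.08, SE 0.14, limma adjusted p = 0.0162). It was high in all knockdowns and varied little within groups. When knockdown replicate 2 was left out, 10 of the 30 rose and 6 fell, where 49.9% of all genes tested were called, so the share was near that of all genes. Knockdown replicate 3 was the highest of the 6 libraries in 18 of 30, against 13.7% of all genes tested and 8 of the 10 Fos, Jun and Egr genes.

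The orphan receptor gene Nr4a1, a serum-induced gene named after its values were seen, had 168, 285 and 788 in the knockdowns, against 360.4, 694 and 766 in the controls. Ier2 had 493, 2811 and 1042 in the knockdowns, against 390.1, 669 and 748 in the controls, and Cyr61, which encodes a matrix-associated signalling protein, had 3730, 3886 and 7590 in the knockdowns, against 1592, 3708 and 3780 in the controls. In all of them knockdown replicate 3 was above replicate 1 and control replicate 1 was the lowest control.

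Among partners and regulators of AP-1 and Egr, 1 gene passed with all libraries. Of 14 basic leucine zipper genes whose products can join AP-1 or bind related sites, 10 were tested, with a median log2 fold change of 0.08. Of the 10, 1 fell and 0 rose, where 4.98% of all genes tested were called. That was Maf, encoding c-Maf, with 58.2, 38.3 and 57.6 in the knockdowns, against 170, 155 and 172 in the controls (log2 fold change −1.69, SE 0.22, limma adjusted p = 0.01725). When knockdown replicate 2 was left out 4 of the 10 rose and 2 fell, where 49.9% of all genes tested were called. Of 20 tested among 21 SRF, ternary complex factor and MAP kinase genes, 0 rose and 0 fell in limma, where 4.98% of all genes tested were called. An unadjusted p under 0.05 was reached by 1, against 2473 of all 12085 genes tested. The median log2 fold change of the 20 was −0.25. Map2k2, which encodes a MAP kinase kinase and is among the most abundant of them, had 2162, 8512 and 2118 in the knockdowns, against 2131, 2260.2 and 2293 in the controls. Its level in knockdown replicate 2 was far above the other 5 libraries, which were close to each other. With that library left out 2 of the 20 rose and 9 fell, where 23.8% of all genes tested were called higher and 26.1% lower.

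Among the feedback genes, MAP kinase phosphatases switch off the kinases upstream of Fos and Egr1. Of 8 tested among 10, 1 fell and 0 rose, where 4.98% of all genes tested were called. Dusp10, which acts on JNK and p38, had 396, 310 and 397 in the knockdowns, against 922, 734 and 867 in the controls, and fell (log2 fold change −1.20, SE 0.18, limma adjusted p = 0.0240). Dusp5, which encodes a nuclear ERK phosphatase and was named after its values were seen, was highest in knockdown replicate 3 and lowest in control replicate 1, with 48.1, 59.5 and 138 in the knockdowns, against 30.3, 95.2 and 108 in the controls. Of the 8 phosphatase genes 3 rose and 1 fell without knockdown replicate 2, a share like the 49.9% of all genes called. The Egr corepressor genes did not pass: Nab1 had 893, 476 and 959 in the knockdowns, against 628, 769 and 669 in the controls (limma adjusted p = 0.820), and Nab2 had 1915, 948 and 2033 in the knockdowns, against 1611, 1684 and 1618 in the controls (limma adjusted p = 0.873). Both rose without knockdown replicate 2 (limma adjusted p = 0.00123 each), where 49.9% of all genes tested were called.

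Of 20 tested among 25 genes that textbooks list as AP-1 or Egr targets, 3 rose and 0 fell, where 3.2% of all genes tested were called higher and 1.78% lower. The median log2 fold change of the 20 was 0.80, against 0.01 over all genes tested. This list, like the others, was chosen with earlier results of these data known. In 13 of the 20 all knockdowns exceeded all controls, against 20.5% of all genes tested. The cyclin D1 gene Ccnd1 had 7158, 8664 and 7514 in the knockdowns, against 3132, 3375 and 3194 in the controls (log2 fold change 1.26, SE 0.15, limma adjusted p = 0.0139), and is a driver of entry into S phase. Ezr, encoding the membrane linker ezrin, had 258, 179 and 278 in the knockdowns, against 48.7, 67.7 and 75.0 in the controls (limma adjusted p = 0.0211), and Phlda1 had 2023, 1696 and 1910.0 in the knockdowns, against 1107, 1098 and 1149 in the controls (limma adjusted p = 0.0424). In all 3 every knockdown was above every control. Of the Fos, Jun and Egr genes the same held for Jund, Jun was lower in every knockdown, and the groups overlapped in the rest. Of the 20, 15 rose and 2 fell when knockdown replicate 2 was left out, where 23.8% of all genes tested were called higher and 26.1% lower. Ier5, Maf, Dusp10, Ccnd1, Ezr and Phlda1 passed in that fit too, with limma adjusted p-values of at most 2.107e-06. Mmp3, Mmp9, Mmp10, Mmp13 and Areg were too low to test, and Mmp10 and Mmp13 were at 0 in all libraries. These genes have many other regulators, and their relation to the Fos, Jun and Egr genes was not tested.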

How the data were processed

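RNA from 6 samples was isolated with Trizol and made into libraries by the Illumina TruSeq protocol, per the labels' protocols. Bowtie 1.0.0, RSEM 1.2.12 and build mm9 are named in the submitters' processing notes; the annotation and the strand setting were not given in the sources used here. The authors deposited a normalized signal for each gene and library, which are RSEM's estimated read counts scaled by median normalization, per the name of the deposited table. No label says that the replicates were separate cultures, so p-values cover only the spread among these samples, which can be technical.

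The 12085 genes whose mean over the 6 libraries reached 10 were tested with limma 3.58.1 (R 4.3.3) after a log2(value + 1) transform, with trend and robust empirical Bayes, as two-sided tests called at an adjusted p (Benjamini-Hochberg) under 0.05; this scale understates changes of low genes. The most frequent low value of each library was taken as 1 read; 88.5 to 90.8% of values up to 20 reads were whole multiples within 0.1 read, so no count test was run. Transcript lengths are medians of protein-coding transcripts in GENCODE M21 (basic set). The fit was tested on simulated data. The 10 genes and the gene lists were chosen with earlier results of these data known. From each list, genes that passed are named, at most 4 and in order of adjusted p; where none did, the 2 of highest mean are named. Values of 1 gene that this rule names are not reported here. Marker lists are given as sums. Alternatives were other pseudocounts, filters, scalings and model options, library weights, a length correction, the replicate number as a block, and each library left out.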

Additional observations from a re-analysis of the deposited data

How the results depend on the processing

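Of 157 fold changes of the 10 genes under the 16 alternatives, 129 kept their direction and their side of the threshold, 19 changed sign and 9 passed with their sign kept. Egr2 under library weights both changed sign and passed, so 10 values passed in all. Jun was lower and Jund higher in all 16, Jun from −0.97 to −0.50 and Jund from 0.18 to 0.82 on the log2 scale. The log2 fold change of Egr3 was negative in all 15 in which it was tested, from −2.32 to −0.21. Its SE in the fit with all libraries (1.13) exceeded the size of its log2 fold change there (−1.04). The mean of its untransformed values was 36.5 in the knockdowns and 34.9 in the controls. Fosb, Fosl1 and Egr3 were not tested at a mean of at least 50.

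The sign changed without knockdown replicate 2 for Fos (0.26), Fosb (0.065) and Fosl2 (0.053), without knockdown replicate 3 for Fosl1 (−0.085), Junb (−0.42), Egr1 (−0.53) and Egr2 (−0.63), without knockdown replicate 1 for Junb (−0.03), and without control replicate 1 for Junb (−0.05), Egr1 (−0.24) and Egr2 (−0.34). Over all single libraries left out, log2 fold changes ran from −1.14 to 0.26 for Fos, −1.46 to 0.065 for Fosb, −0.085 to 1.30 for Fosl1, −0.59 to 0.053 for Fosl2, −0.42 to 0.70 for Junb, −0.53 to 0.45 for Egr1 and −0.63 to 0.84 for Egr2. Total scaling, which moved the median of all genes to −0.14, changed the sign for Junb (−0.0585), Egr1 (−0.054) and Egr2 (−0.054), and length correction for Fosl2 (0.0235) and Junb (−0.10). Library weights changed it for Fosl2 (0.0061), Egr1 (−0.42) and Egr2 (−1.41); their estimation did not converge and gave knockdown replicate 1 a weight of 211.7, against 0.0141 and 0.0747 for knockdown replicates 2 and 3, so this fit in effect sets 1 knockdown library against the controls. It called 8 of the 10 genes, 22 other immediate early genes and 8810 genes in all.

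Over all genes limma called 602 with the settings of the report, 302 under total scaling, 1340 with the length correction and 0 with the replicate block (1866 at an unadjusted p under 0.05). Leaving out 1 library gave 0 to 5991 calls over all genes, 0 to 2 among the 10 genes and 0 to 16 among other immediate early genes. The 5991, the 2 and the 16 came without knockdown replicate 2, and the 0 over all genes without control replicate 1, 2 or 3 (1495, 1529 and 1475 at an unadjusted p under 0.05). Other immediate early genes called numbered 1 with the settings of the report, 0 under total scaling, 2 with the length correction and 0 with the replicate block. Over all genes tested, deviations of same-numbered libraries from their group means correlated at 0.1697, −0.051 and −0.051. Knockdown replicate 2 enters each knockdown mean, so this check cannot tell whether the numbers pair libraries. The main fit took no pairing. Of the 34 genes over 2-fold higher in knockdown replicate 3 than in 1, 25 were also higher in control replicate 3 than in 1. With the block the SE was 0.41 for Egr2 and 0.43 for Egr1, against 0.80 and 0.60 without it. The block called 0 of the 10 genes. The cause of the changes in the number of calls was not tested.

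Depth limits Fosb, Fosl1 and Egr3 most, with 1 to 2.17 estimated reads in knockdown replicate 2 and 8.08 to 18 in control replicate 2.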

Other observations

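Apart from immediate early genes, few abundant genes separated knockdown replicates 3 and 1. Of 10743 genes with a mean of at least 50, 15 were more than 2-fold higher in replicate 3, and 3 of the 10 genes (Fos, Egr1, Egr2) and 5 other immediate early genes (Nr4a1, Arc, Ier2, Ptgs2, Cyr61) made up 8 of them, 53.3% of the 15. At the lower minimum mean of 10, 25 genes were more than 2-fold lower in replicate 3 than in replicate 1, and none of the 25 was among the 10 genes or the other immediate early genes. Ptgs2, which encodes the prostaglandin enzyme cyclooxygenase-2, had 334, 89.3 and 703 in the knockdowns, against 158, 231 and 183 in the controls, so it was highest in knockdown replicate 3 and its controls differed less than those of Egr1. These values were looked at after the data were seen.

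Maff, a small Maf partner of basic leucine zipper proteins and itself an immediate early gene, had 213, 80.8 and 242 in the knockdowns, against 40.9, 42.6 and 39.7 in the controls. All knockdowns exceeded all controls, as in 20.5% of all genes tested. Of the 30 other immediate early genes tested, 7 were higher in all knockdowns than in all controls and 6 were lower. The Maff log2 fold change of 1.95 (SE 0.44) did not pass with all libraries (limma adjusted p = 0.0737), and did without knockdown replicate 2 (limma adjusted p = 1.27e-07). The ERK phosphatase gene Dusp4 had 299, 132 and 387 in the knockdowns, against 46.4, 103 and 63.2 in the controls (log2 fold change 1.87, limma adjusted p = 0.105), and it rose without knockdown replicate 2 (log2 fold change 2.32, limma adjusted p = 0.001251). Both genes were named after their values were seen, and 49.9% of all genes tested were called without knockdown replicate 2.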
